A study of Mus musculus with 72 samples.

Results

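The genes of 36 aminoacyl-tRNA synthetases were followed through the RNA fractions of mouse embryonic stem cells. They were chosen by symbol alone. The 20 genes of the cytosolic enzymes were Aars, Cars, Dars, Eprs, Farsa, Farsb, Gars, Hars, Iars, Kars, Lars, Mars1, Nars, Qars, Rars, Sars, Tars, Vars, Wars and Yars. The 16 genes of the mitochondrial enzymes, whose symbols end in 2, were Aars2, Cars2, Ears2, Fars2, Hars2, Iars2, Lars2, Mars2, Nars2, Pars2, Rars2, Sars2, Tars2, Vars2, Wars2 and Yars2. All 36 were found among the 51826 genes of the count files, all 36 passed the filters on low counts and on T positions in exons, and 34 passed the filter on T positions in introns.

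Aminoacyl-tRNA synthetases attach each amino acid to its tRNA and so set which amino acid a codon is read as. Cytosol and mitochondria each translate with their own set of enzymes, and both sets are encoded by nuclear genes. A few genes serve both compartments, and Gars (glycine) and Kars (lysine) are the known cases. Several cytosolic enzymes sit together in the multisynthetase complex with the scaffold proteins Aimp1, Aimp2 and Eef1e1. Many cytosolic synthetase genes are known targets of the transcription factor ATF4, which cells use when amino acids run short or the endoplasmic reticulum (ER) is stressed.

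The cells were E14TG2a, a mouse embryonic stem cell line that stands for 1 cell type and 1 genetic background. All cultures received 4sU (4-thiouridine), a uridine analog that is built into newly made RNA and, once alkylated, gives a C where the genome has a T. Cultures without 4sU were not analysed here, so the share of T-to-C changes that arises without label is not known for these genes. There were 72 poly(A)-selected libraries, in which 4 fractions (cytosol, nucleus, membrane and whole cells) were taken at 9 labeling conditions with 2 replicates each. Labeling lasted 15, 20 or 30 min (500 µM) in replicates 1 and 2. It lasted 20 or 40 min (500 µM) and 60 or 120 min in replicates 3 and 4. Replicates 5 and 6 had 100 µM and were taken after 60 or 120 min. For 60 and 120 min of replicates 3 and 4 the labels give 100 µM and the methods of the study 500 µM. The conversion rate of labeled RNA was 5.83–12.2% in these libraries and 2.38–3.99% in replicates 5 and 6. Cytosolic RNA was released with digitonin and membrane RNA, which holds that of the ER and of mitochondria, with NP-40. The main comparisons of fractions and of new shares used 64 libraries of 16 cultures and left out 120 min of replicates 3 and 4, which entered the comparison of levels over time.

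Reads on genes numbered 15716484–52975732 for nuclear RNA, 19572053–30613392 for cytosolic RNA, 18934375–37447227 for membrane RNA and 15382522–26317779 for whole cells, over 16 libraries each. The 10 stem cell markers summed to 14490–23116 TPM (reads per kilobase of exon, scaled so that protein-coding genes have the same sum in each library) in whole cells, against 7.23–22.8 for fibroblast markers, of which Lum was at 0 in every library, 1.92–6.30 for endoderm and 15.4–24.7 for neural and mesoderm markers. All 10 membrane markers were higher in the membrane fraction than in the cytosol, with a median log2 difference of 4.55. All 6 cytosolic mRNAs used as markers were lower, and all 5 nuclear RNAs higher, in the nucleus than in the cytosol. Between membrane fraction and cytosol the cytosolic markers were less apart. Of these 6, only 2 were called lower in the membrane fraction, with a median log2 difference of −0.35. The replicate pairs differed in the sum of the 10 membrane and secretory markers in whole cells, which ran from 8817 to 11661 TPM in replicates 1 and 2, from 3656 to 5466 in replicates 3 and 4, and from 6159 to 7005 in replicates 5 and 6. The groups do not overlap, and values within each pair are therefore given beside the results that depend on it.

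In whole cells the cytosolic synthetase mRNAs had the higher median level, and both sets had a median above that of all genes. The median over the 20 cytosolic genes was 193 TPM, that over the 16 mitochondrial genes 34.6 and that over all genes tested 11.0. The 2 group medians stood at the percentiles 94.2 and 70.3 of all genes. Gars (ENSMUSG00000029777, GRCm38 chr6:55038007-55079500, plus strand) led the cytosolic genes at 541 ± 163 TPM (SD, n = 16), with a lowest value of 302, a median of 540 and a highest of 756. Kars (ENSMUSG00000031948, chr8:111993443-112011323, minus strand) had 283 ± 57.1 TPM and ran from 180 over a median of 307 to 344. Both dual-compartment genes were thus at the cytosolic, not the mitochondrial, range of levels. Between them stood Nars (asparagine) at 355 ± 97.2 TPM. The lowest cytosolic genes were Farsa at 91.5 ± 13.1, the catalytic subunit of the phenylalanine enzyme, and Eprs at 99.6 ± 19.1, a fusion that charges glutamate and proline. Farsb, the other phenylalanine subunit, was at 246 ± 61.1 TPM. The order depends on the annotated exon length that TPM divides by, 18102 bases for Eprs and 3119 for Gars. In reads, the poorest library held 4811 for Eprs and 3768 for Gars. How much of the annotated length these cells use was not tested.

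Levels of mitochondrial enzymes reached from 84.7 ± 19.3 TPM for Yars2 (tyrosine) over 45.8 ± 7.10 for Aars2 (alanine) to 7.39 ± 1.33 for Nars2 (asparagine) and 5.40 ± 1.24 for Wars2 (tryptophan). In the order of all 36 mean levels, 8 of the 35 steps between neighbors were larger than the larger of the 2 SDs. Those were Gars to Nars, Cars to Eprs, Tars2 to Aars2, Hars2 to Vars2, Vars2 to Pars2, Pars2 to Ears2, Cars2 to Fars2 and Nars2 to Wars2. The other steps were not larger than that SD, which also holds the differences between replicate pairs. Neighbors can thus still differ within a pair. Nars and Kars were at 406 to 505 and 307 to 344 TPM in replicates 3 and 4, without overlap. Their ranges overlapped in replicates 1 and 2 and in replicates 5 and 6. Since the libraries are of bulk RNA, fewer cells with an mRNA and less of it per cell cannot be told apart.

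**Figure D1:**
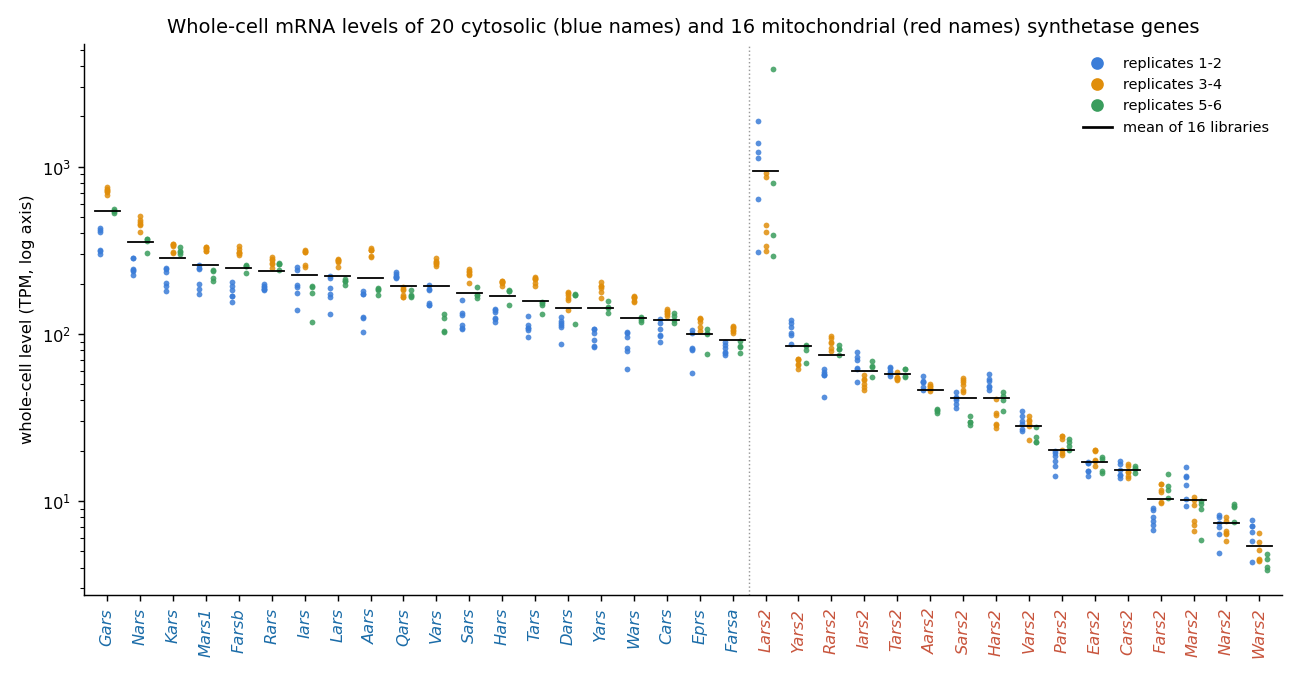
Whole-cell level of each synthetase gene in 16 libraries (points, colored by replicate pair, TPM on a log axis), with the mean as a bar and the 20 cytosolic genes left of the dotted line. Cytosolic genes center near 193 TPM and mitochondrial ones near 34.6, Lars2 is spread from 293 to 3837, and most cytosolic genes are highest in replicates 3 and 4.

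Lars2, the mitochondrial leucine enzyme (ENSMUSG00000035202, chr9:123366927-123462666, plus strand), had the highest count per length of all 36 genes and cannot be read as an mRNA level. Its 16 whole-cell values ran from 293 over 723 to 3837 TPM, with an SD of 898 around a mean of 948. Between 91.98 and 99.94% of its T positions in the 64 libraries lay in the last exon, at chr9:123461499-123462664. In its other exons the ratio of membrane to cytosol had a median of 0.68 and was above 1 in 4 of 16 cultures. Every level and exonic share of Lars2 as a whole gene therefore stands for reads on that exon. Shares given for its introns or for the first part of the gene do not. Those for its last part again stand for reads on that exon. Medians and counts of the mitochondrial genes include Lars2.

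In 17 pairs of a cytosolic and a mitochondrial enzyme for the same amino acid, the cytosolic gene was higher in all 16 whole-cell libraries in 15. Farsa and Farsb were each paired with Fars2, and Eprs with Ears2 and Pars2. Nars was a median of 40.0 times the level of Nars2 (lowest 32.5, highest 72), Mars1 25.7 times Mars2 (11.5 to 47.1), Wars 25.6 times Wars2 (10.6 to 38.1) and Farsb 24.7 times Fars2 (15.9 to 31.4). The gap was small for threonine, where Tars was 2.56 times Tars2 (1.63 to 4.13). Tyrosine was an exception, with Yars at 1.75 times Yars2 and a range from 0.73 to 3.30, so that the order turned in 3 of 16 libraries. The other exception was leucine, at 0.32 (0.05 to 0.87), which rests on the last exon of Lars2. All these ratios also depend on the annotated exon length, such as 3423 bases for Mars1 and 11294 for Mars2.

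Membrane over cytosol ratios asked which synthetase mRNAs had a higher level in the fraction that holds ER and mitochondria. Levels are scaled within each fraction and are not amounts of RNA. The study estimates that more of the total mRNA is at membranes than in the cytosol. A ratio under 1 therefore does not mean that most of an mRNA was in the cytosol. Differences were tested with edgeR's quasi-likelihood test, and a gene was called at a Benjamini-Hochberg adjusted p under 0.05 and a log2 fold change beyond 0.5. Of the 36 genes, 5 were called higher in the membrane fraction, against 24.2% of all genes, and 4 lower, against 12% of all genes. The higher genes were Qars and Mars1 (cytosolic) and Yars2, Iars2 and Mars2 (mitochondrial). The lower ones were Dars, Nars, Hars and Sars2. With library size alone 3 were higher and 20 lower, and 33.1% of all calls were higher in place of 66.9%. Without replicate 4, 13 were lower, and without replicate 5, 9. The median log2 difference was −0.31 for cytosolic, −0.13 for mitochondrial and −0.13 for all genes.

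Qars (glutamine, ENSMUSG00000032604, chr9:108507706-108515941, plus strand) stood apart among the cytosolic genes. Its level in the cytosol ran from 31.1 over 73.6 to 98.1 TPM and in the membrane fraction from 163 over 204 to 233, without overlap. The ratio within a culture was 2.02 at the lowest, 2.79 at the median and 6.62 at the highest, above 1 in 16 of 16 cultures. The log2 difference was 1.79 ± 0.06 (SE, edgeR adjusted p = 2.2e-29). Each of its 24 exons had a median ratio above 1, from 1.75 to 3.04. Within replicates 1 and 2, 3 and 4, and 5 and 6 the log2 difference was 1.70, 2.00 and 1.61.

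Mars1 (methionine) was the other cytosolic gene, with a smaller difference. Its ratio ran from 1.17 over 1.45 to 1.77 and was above 1 in 16 of 16 cultures, with a log2 difference of 0.63 ± 0.05 (edgeR adjusted p = 4.5e-14). Within pairs the log2 difference was 0.83, 0.37 and 0.74, and without replicate 4 it was 0.48, under the limit of 0.5. Of its 22 exons with enough T positions, 11 had a ratio above 1, with a range from 0.79 to 1.44, and these were the later exons. Its highest ratio was in exon 21 of 23, and exons 22 and 23 overlap, have the same counts and are both in these numbers. In Qars, Yars2, Iars2 and Aars the ratio was highest in the last exon, at 3.04, 2.56, 2.49 and 0.76. Qars and Mars1 both belong to the multisynthetase complex. Of the 8 genes of that complex, these 2 were higher and Dars lower, with a median log2 difference of 0.13.

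Yars2 (ENSMUSG00000022792, chr16:16302965-16309640, plus strand) was at 20.5, 37.0 and 47.7 TPM in the cytosol (lowest, median and highest) and at 75.7, 89.3 and 123 TPM in the membrane fraction. Its ratio ran from 2.25 over 2.75 to 4.69, and its log2 difference was 1.63 ± 0.06 (edgeR adjusted p = 7.3e-28). Iars2 (isoleucine) was at 9.33, 21.7 and 31.6 TPM in the cytosol and at 29.0, 51.4 and 65.7 in the membrane fraction, with a ratio from 1.61 over 2.18 to 6.20 and a log2 difference of 1.5 ± 0.07 (edgeR adjusted p = 2.7e-23). Both ratios were above 1 in 16 of 16 cultures. All 7 exons of Yars2 and the 24 of 25 exons of Iars2 with enough T positions had a median ratio above 1. Within the 3 pairs the log2 difference was 1.85, 1.55 and 1.41 for Yars2 and 1.44, 1.83 and 1.11 for Iars2.

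Mars2 (methionine), a gene of 1 exon, was at 2.93, 6.17 and 11.4 TPM in the cytosol and at 5.09, 9.59 and 12.8 in the membrane fraction. The ranges overlap, and the ratio was above 1 in 13 of 16 cultures with a median of 1.21. The log2 difference was 0.58 ± 0.06 (edgeR adjusted p = 4e-11) and fell to 0.49, under the limit, without replicate 3 or without replicate 4. Vars2 (valine) had a median ratio of 1.24 but a range from 0.73 to 3.74, and its log2 difference of 0.47 was not called.

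Called at a lower level in the membrane fraction were 3 cytosolic enzymes and 1 mitochondrial one. Dars (aspartate) ran from 138 over 187 to 281 TPM in the cytosol and from 81.0 over 106 to 171 in the membrane fraction, with a ratio under 1 in 16 of 16 cultures (0.44, 0.60 and 0.77) and a log2 difference of −0.60 ± 0.06 (edgeR adjusted p = 1.7e-11). The ratio of Nars was 0.46, 0.61 and 0.94 (lowest, median and highest), and its log2 difference was −0.54 ± 0.05 (edgeR adjusted p = 3.1e-13). That of Hars (histidine) was 0.55, 0.63 and 0.86, with −0.50 ± 0.05 on the log2 scale (edgeR adjusted p = 1.3e-12). For Sars2 (serine) it was 0.40, 0.61 and 1.17, with −0.53 ± 0.06 (edgeR adjusted p = 7.1e-10). Dars, Nars and Hars were under 1 in every culture, and Sars2 was above 1 in 2. These differences lay close to the limit. Without replicate 3 Nars was at −0.49 and Hars at −0.45, and without replicate 2 Hars was at −0.49. In the pairs, Dars had −0.23, −0.90 and −0.71, Nars −0.34, −0.59 and −0.76, Hars −0.31, −0.67 and −0.55, and Sars2 −0.70, −0.36 and −0.54.

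Gars and Kars, with products in both compartments, were not called. The ratio ran from 0.71 over 0.85 to 0.96 for Gars and from 0.61 over 0.76 to 0.90 for Kars, under 1 in every culture. Of 11 genes that were tested among the partners of aminoacylation (scaffold proteins, the mitochondrial amidotransferase and related enzymes), 1 was lower in the membrane fraction, Gatc at −0.73 ± 0.06 (edgeR adjusted p = 9.2e-15), a subunit of the mitochondrial amidotransferase.

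**Figure D2:**
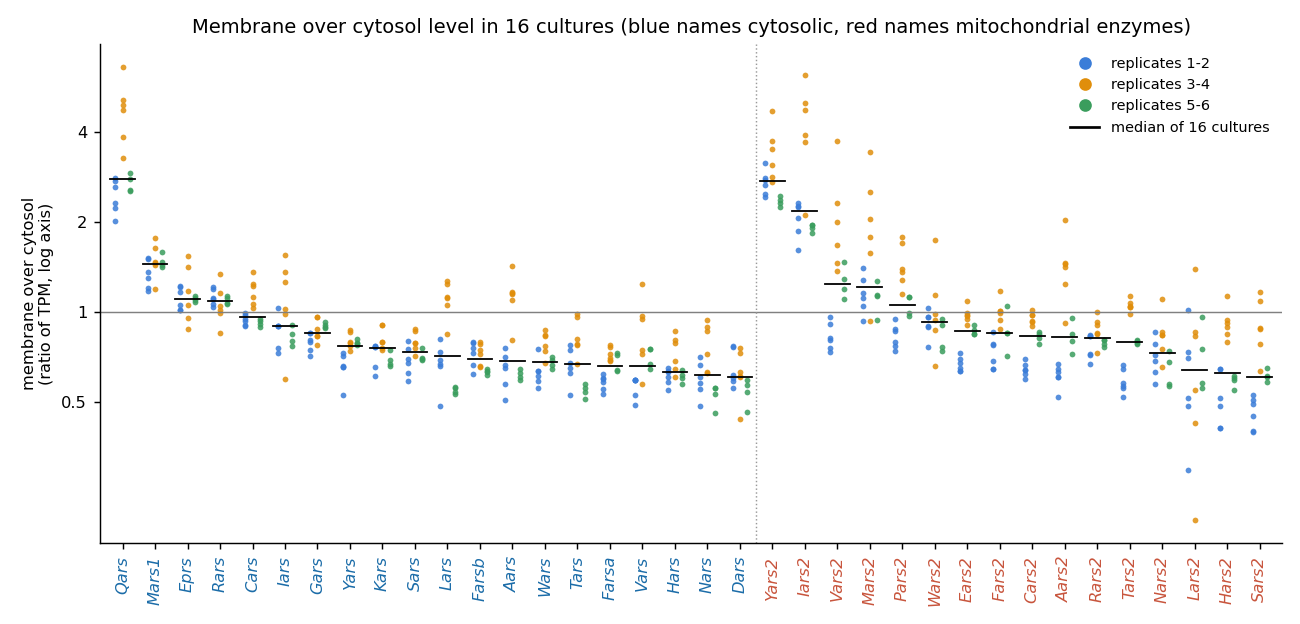
Ratio of membrane to cytosol level of each gene in 16 cultures (points, colored by replicate pair, ratio of TPM on a log axis), with the median as a bar and the line at a ratio of 1. Qars, Yars2 and Iars2 lie above 1 in every culture, with medians of 2.79, 2.75 and 2.18, and Dars, Nars and Hars lie below 1 in every culture.

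Nuclear levels were then set against cytosolic ones. Of the 36 genes, 7 were called higher in the nucleus, against 36.8% of all genes, and 14 lower, against 30.2% of all genes. The 7 were Qars and 6 mitochondrial enzymes (Vars2, Iars2, Hars2, Aars2, Yars2 and Tars2). The 14 were 12 cytosolic enzymes and Fars2 and Rars2. The median log2 difference was −0.60 over the cytosolic, 0.12 over the mitochondrial and 0.06 over all genes tested. The sets overlapped, since 4 of the 20 cytosolic genes were above 0 and 7 of the 16 mitochondrial genes below, and the difference between the sets was not tested.

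These values depend on the scale. The fit measures a gene against the bulk of genes by the TMM scaling factors of edgeR, and in the median of the 36 genes its log2 difference lay 0.68 below that of the TPM ratio. All 7 higher genes were above 1 by TPM in all 16 cultures. Of the 14 lower genes, only Gars and Hars were under 1 by TPM in all 16, and Iars and Nars had a median TPM ratio above 1 (1.08 and 1.10), opposite to the fit. With size factors of the RLE method the median of all genes shifted by 0.20, with 8 of the 36 genes higher and 11 lower. With library size alone it shifted by 0.34, with 10 higher and 9 lower. Of all calls, 54.9% were higher with TMM, 63.9% with RLE and 70.6% with library size alone.

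Hars2 (histidine) ran from 49.3 over 86.9 to 129 TPM in the nucleus and from 16.9 over 24.0 to 29.0 in the cytosol. Its ratio was 1.91, 3.52 and 6.88 (lowest, median and highest), and the log2 difference was 1.07 ± 0.05 (edgeR adjusted p = 2.3e-23). Vars2 was at 35.8, 45.9 and 74.1 TPM in the nucleus against 5.27, 15.7 and 19.9 in the cytosol, with 1.19 ± 0.06 (edgeR adjusted p = 4.5e-21). Iars2 was at 44.6, 71.4 and 88.9 TPM in the nucleus, with a ratio from 2.00 over 3.47 to 7.94 and 1.17 ± 0.07 (edgeR adjusted p = 1.4e-19). The nuclear and cytosolic ranges of these 3 genes did not overlap. Within pairs the log2 difference was 1.3, 1.14 and 0.64 for Hars2, 0.68, 1.89 and 0.89 for Vars2, and 0.71, 1.42 and 1.5 for Iars2. Hars and Hars2 overlap at their 5′ ends on opposite strands. The libraries are stranded, but a share of reads counted for the wrong partner was not tested.

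Qars, which was high in the membrane fraction, was also high in the nucleus, at 164, 191 and 212 TPM. Its ratio to the cytosol ran from 1.94 over 2.55 to 5.58 and its log2 difference was 0.88 ± 0.06 (edgeR adjusted p = 3e-18). The same held for Yars2 (ratio 2.36, 2.65 and 5.16) and Iars2, so that for these 3 genes the cytosol was the fraction with the low level. All 10 membrane and secretory markers were also higher in the nucleus than in the cytosol, with a median log2 difference of 2.44, and 3 of 5 nuclear RNAs were higher in the membrane fraction than in the cytosol. What RNA of one fraction in the other adds to these values was not tested.

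Among the lower genes, Gars was at 337, 485 and 644 TPM in the nucleus and at 451, 611 and 786 in the cytosol. Its ratio ran from 0.66 over 0.75 to 0.87 and its log2 difference was −1.11 ± 0.05 (edgeR adjusted p = 4.5e-23). Dars had a ratio of 0.47, 0.83 and 1.14 and −1.09 ± 0.06 (edgeR adjusted p = 5.4e-20), and Hars one of 0.60, 0.82 and 0.93 and −1.04 ± 0.05 (edgeR adjusted p = 2.7e-23). Within pairs the log2 difference was −1.04, −1.41 and −0.75 for Gars, −0.57, −1.89 and −0.69 for Dars and −0.85, −1.46 and −0.69 for Hars. Kars had a median ratio of 0.91 (0.55 to 1.10) and −0.89 ± 0.06 (edgeR adjusted p = 4.7e-17). Fars2 (phenylalanine) was at −0.94 ± 0.08 (edgeR adjusted p = 4.9e-15) and Rars2 (arginine) at −0.78 ± 0.06 (edgeR adjusted p = 6.7e-16), and the nuclear and cytosolic TPM ranges of both overlapped (8.29 to 14.0 against 10.2 to 14.6 for Fars2, 61.9 to 107 against 57.8 to 119 for Rars2). Without replicate 3, 8 genes were lower in place of 14, and Iars, Kars, Mars1, Nars, Sars and Rars2 lost their call. Without replicate 1, 9 were lower. Of the 11 partner genes tested, 7 were lower, among them Gatc (−1.5), Eef1e1 (−1.23) and Aimp1 (−1.23).

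New shares show how fast labeled RNA replaced the pool of each mRNA. The new share is the number of T-to-C changes over the number of T positions in the reads of a gene, divided by the conversion rate of the library. At 15 min cytosolic shares were near 1% in both sets (median 1.04% for cytosolic and 1.41% for mitochondrial enzymes, 1.60% for all genes), a level at which no background is known here, so they should not be read as new RNA. At 120 min of replicates 5 and 6, the cytosolic share had a median of 14.2% over the 20 cytosolic genes, 25.8% over the 16 mitochondrial genes and 37.0% over all genes. None of the 20 cytosolic genes was above the median of all genes, against 4 of the 16 mitochondrial ones (Mars2, Pars2, Hars2 and Yars2).

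The share differed between the cytosolic enzymes. At 120 min the 2 cytosol libraries (replicates 5 and 6) had shares of 24.8 and 23.2% for Aars (alanine) and 20.4 and 19.8% for Farsa. They were lower for Kars (13.9 and 13.4%) and Gars (12.9 and 11.7%), and lower still for Qars (8.44 and 8.51%). At 60 min in the same replicates Gars had 6.65 and 5.64%, Kars 7.52 and 7.0% and Aars 15.8 and 13.4%. In each of these genes less than 25% of the cytosolic mRNA was new after 120 min in both libraries.

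A few mitochondrial enzymes turned over fast. Mars2 (chr1:55237177-55248470, plus strand) had cytosolic shares of 30.6 and 30.6% after 30 min, 85.5 and 78.8% after 60 min of replicates 5 and 6, and 89.3 and 96.0% after 120 min. Pars2 (proline, chr4:106651069-106655282, plus strand) had 7.40 and 11.5% after 30 min and 89.7 and 95.4% after 120 min. Yars2 had 19.8 and 18.7% and then 53.6 and 57.2%, and Hars2 4.25 and 3.75% and then 61.4 and 54.0%. Mars2 has no intron positions in these files, and Pars2 only 278 T positions in introns in its poorest nuclear library. Fars2 (12.1 and 7.02%) and Rars2 (13.5 and 12%) stayed in the range of the cytosolic enzymes at 120 min. Lars2, read from its last exon, had 3.06 and 2.78%. In 11 of 17 pairs of enzymes the mitochondrial gene had the higher cytosolic share in both libraries of 120 min. The number of T positions behind a share was 2789 in the poorest library of Wars2 and at least 29093 for every cytosolic gene, so that shares of the rare mitochondrial mRNAs are less precise.

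Nuclear shares rose earlier. At 30 min the nuclear median was 4.00% for cytosolic, 4.09% for mitochondrial and 9.33% for all genes, and at 120 min of replicates 5 and 6 it was 18.8, 41.6 and 43.0%. Mars2 had 31.7 and 34.3% in the nucleus at 30 min, close to its cytosolic values. Yars2 had 24.0 and 27.4%, Hars2 15.2 and 13.7%, Gars 3.53 and 3.51% and Kars 3.95 and 5.02%. Again none of the 20 cytosolic genes was above the median of all genes at 120 min, and 8 of the 16 mitochondrial genes were. In whole cells replicate 6 differed from replicate 5 at both late times, in opposite directions. Gars had 13.0% in replicate 5 and 5.4% in replicate 6 at 120 min, and 7.9 and 11.4% at 60 min. The whole-cell share of replicate 6 was thus lower at 120 than at 60 min, and the cause was not tested.

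**Figure D3:**
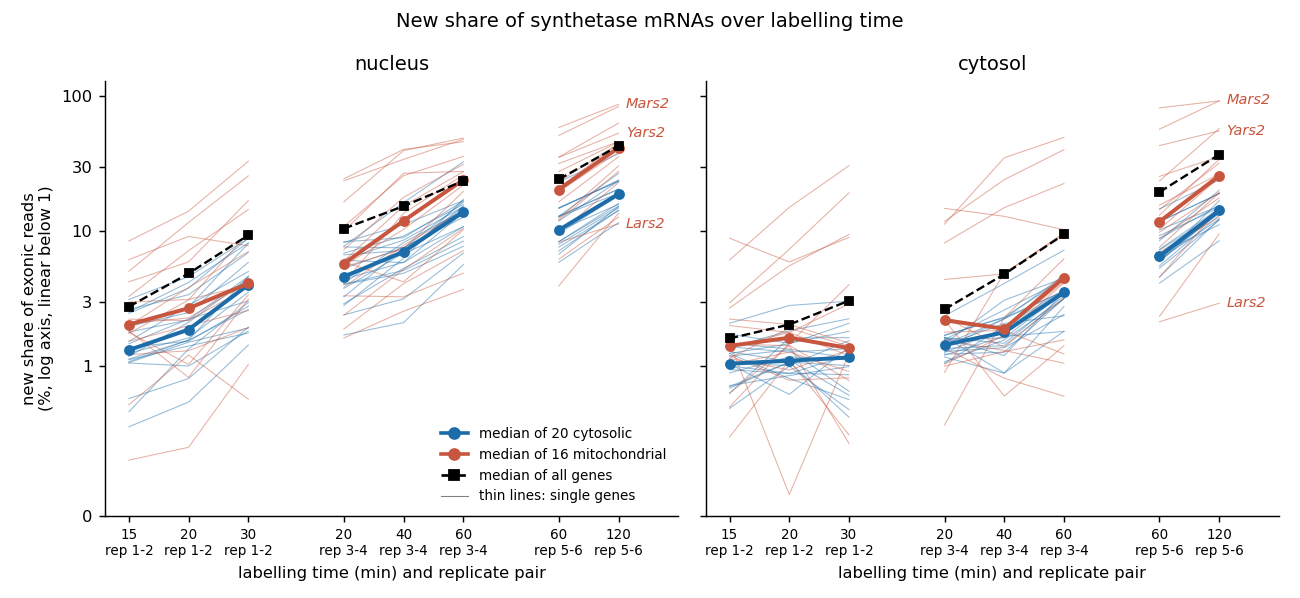
New share of exonic reads (%, log axis, linear below 1) in the nucleus and the cytosol by labeling time and replicate pair, with thin lines for single genes and thick lines for medians. In the cytosol the medians at 120 min are 14.2% for cytosolic enzymes, 25.8% for mitochondrial enzymes and 37.0% for all genes, and Mars2 and Pars2 lie highest.

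Nuclear against cytosolic shares tested how far the nuclear pool was ahead. In the fit over 16 cultures, 31 of the 36 genes had a higher new share in the nucleus and none a lower one, near the background of 77.4% and 1.01% of all genes. The median log2 difference was 1.13 for cytosolic, 1.01 for mitochondrial and 1.08 for all genes. The fit averages all conditions, and at the shortest labeling times the low cytosolic shares cannot be told from changes without label. How much such changes add to the difference was not tested. In the 60 and 120 min libraries of replicates 5 and 6 alone, 8 of the 36 genes were called. Calls fell for all genes there, to 1373 of the 11575 genes tested. Within replicates 1 and 2, 3 and 4, and 5 and 6 the median log2 difference was 0.92, 1.86 and 0.29 for cytosolic genes. For mitochondrial genes it was 0.81, 1.62 and 0.51. Within replicates 5 and 6, 19 of the 20 cytosolic and 12 of the 16 mitochondrial genes were above 0.

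Farsa had the widest gap. Its share at 60 min of replicates 3 and 4 was 36.5 and 28.8% in the nucleus and 3.37 and 3.69% in the cytosol, and at 120 min of replicates 5 and 6 it was 39.0 and 36.1% against 20.4 and 19.8%. The nuclear values were above the cytosolic ones in both libraries at both times. The log2 difference was 2.11 ± 0.14 (edgeR adjusted p = 7.6e-33), and 1.77, 3.06 and 1.17 within the 3 pairs. Vars (valine) had 20.0 and 12.9% in the nucleus against 1.80 and 1.81% at 60 min of replicates 3 and 4, and a log2 difference of 1.52 ± 0.13 (edgeR adjusted p = 1.7e-23). Hars had 18.8 and 10.8% against 4.07 and 2.89% and a log2 difference of 1.52 ± 0.15 (edgeR adjusted p = 1.2e-18).

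Among the mitochondrial enzymes Tars2 (threonine) led with 30.4 and 24.8% in the nucleus against 3.16 and 5.12% in the cytosol at 60 min of replicates 3 and 4, and a log2 difference of 1.96 ± 0.15 (edgeR adjusted p = 2e-28). Hars2 had 36.8 and 34.8% against 8.67 and 10.7% and 1.57 ± 0.15 (edgeR adjusted p = 2e-19). Sars2 had 16.5 and 22.9% against 0.897 and 1.92% and 1.56 ± 0.24 (edgeR adjusted p = 2e-09). The nuclear share of each was above the cytosolic one in both libraries. The difference was smaller for Gars (0.87 ± 0.11, edgeR adjusted p = 1.1e-12) and Kars (1.03 ± 0.12, edgeR adjusted p = 4.7e-15). Not called were Farsb (0.50), Fars2 (0.58, adjusted p = 0.12), Wars2 (0.41), Pars2 (0.34) and Mars2 (0.11 ± 0.11, edgeR adjusted p = 0.36). For Mars2 the shares at 120 min of replicates 5 and 6 were 91.8 and 82.9% in the nucleus and 89.3 and 96.0% in the cytosol, and for Pars2 92.9 and 75.3% and 89.7 and 95.4%, so that the 2 fractions overlapped for Mars2 and Pars2. All 12 partner genes had a higher share in the nucleus, among them Tarsl2 (2.08), Aimp2 (1.48) and Qrsl1 (1.48).

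New shares were also compared between membrane and cytosol. Of the 36 genes, none was higher in the membrane fraction, where 4.8% of all genes were, and 1 was lower, where 10.7% were. The median log2 difference was −0.03 for cytosolic, −0.07 for mitochondrial and 0.01 for all genes. The gene was Yars2. At 60 min of replicates 5 and 6 its share was 42.7 and 43.6% in the cytosol and 23.5 and 20.0% in the membrane fraction, and at 120 min 53.6 and 57.2% against 41.9 and 37.9%. At 30 min it was 19.8 and 18.7% against 5.43 and 3.92%. The membrane values were lower in both libraries at each of these times. The log2 difference was −1.04 ± 0.13 (edgeR adjusted p = 3.5e-12), and −1.67, −0.60 and −0.73 within pairs. Qars, which was also at a higher level in the membrane fraction, had 4.90 and 3.32% in the cytosol against 2.15 and 1.83% at 60 min of replicates 5 and 6. Its difference of −0.46 ± 0.13 (edgeR adjusted p = 0.0048) did not reach the limit of 0.5. The medians near 0 covered pairs that lay on different sides. Of the 20 cytosolic genes, 11 were above 0 within replicates 1 and 2 (median 0.01), 17 within replicates 3 and 4 (median 0.15) and none within replicates 5 and 6 (median −0.35). Farsa was at 0.70 and Cars at 0.53 within replicates 3 and 4, and both were below 0 within replicates 5 and 6 (−0.33 and −0.51), where Eprs was at −0.62 and Mars1 at −0.55. In the 60 and 120 min libraries of replicates 5 and 6 alone, 3 of the 36 genes were called lower. Of the 11575 genes tested, 974 were called there in either direction.

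Introns, which mark pre-mRNA, were labeled far ahead of exons. Of the 34 genes tested, 33 had a higher new share in nuclear introns than in nuclear exons, near the background of 96.2% of all genes, and none had a lower one (0.0867% of all genes). The median log2 difference was 3.16 for cytosolic, 2.30 for mitochondrial and 1.96 for all genes. Kars introns had a share of 30.1 and 25.4% after 15 min and of 65.2 and 85.5% after 30 min, while its nuclear exons were at 1.45 and 0.895% and at 3.95 and 5.02%. Gars introns had 17.1 and 16.3% and then 56.9 and 59.6%, and 101 and 95.8% at 120 min of replicates 5 and 6. The introns of both genes were above 50% new at 30 min in every library, when the exons of the same RNA fraction were at or under about 5%.

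The difference was 4.09 ± 0.11 on the log2 scale for Farsb (edgeR adjusted p = 4.9e-40), 3.80 ± 0.11 for Kars (edgeR adjusted p = 8.2e-39), 3.79 ± 0.10 for Lars (edgeR adjusted p = 2.1e-40) and 3.75 ± 0.10 for Gars (edgeR adjusted p = 1.3e-39). Farsb introns had 15.7 and 16.4% at 15 min and 32.6 and 40.3% at 30 min, and Lars introns 14.7 and 11.0% and then 30.6 and 33.5%. Among mitochondrial enzymes Fars2 had the largest difference, 4.52 ± 0.15 (edgeR adjusted p = 1.1e-35), followed by Lars2 with 3.45 ± 0.10 (edgeR adjusted p = 6.9e-39) and Rars2 with 3.34 ± 0.13 (edgeR adjusted p = 2.9e-32). The value of Lars2 sets its introns against reads on its last exon and cannot be read as a difference between pre-mRNA and mRNA. Fars2 introns were at 49.2 and 63.6% at 30 min and its nuclear exons at 1.34 and 2.51%, and Rars2 introns were at 20.3 and 21.1%. Wars2 was the gene that was not called, with 0.19 ± 0.15 (edgeR adjusted p = 0.22). Its introns had 9.72 and 14.4% at 30 min and 60.5 and 54.6% at 120 min of replicates 5 and 6, the time at which the median of all genes was 94.4%. At 15 min the intron share was above the median of all genes (13.7%) in 15 of the 20 cytosolic and in 4 of the 14 mitochondrial genes with introns.

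Along the exons, label appeared first at the 3′ end. It is known that transcripts already under way when label is given carry it in their later part only. Each gene was split along its length into 3 segments of the same size, its exons were assigned to the segment of their center, and 33 genes had values in the first and in the last segment. At 30 min in the nucleus the last segment had the higher new share in both libraries in 30 of 33 genes, in 20 of 20 cytosolic and 10 of 13 mitochondrial ones. The median over genes was 0.97% in the first and 5.43% in the last segment. At 15 min it held for 16 of 33 (0.91 against 1.72%) and at 120 min of replicates 5 and 6 for 21 of 33 (18.85 against 23.1%). In the cytosol at 30 min it held for 18 of 33 (0.79 against 1.45%).

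In Gars the first segment was at 1.20 and 0.25% and the last at 5.15 and 5.72% in the nucleus at 30 min. Kars had 1.17 and 1.48% against 4.64 and 5.76%, Farsb 0.58 and 0.92% against 4.15 and 8.72%, and Eprs 0.87 and 1.75% against 4.99 and 7.43%. In Yars2, whose shares were higher in all, the first segment had 7.96 and 7.86% and the last 34.4 and 39.4%. Both values of the last segment were above both of the first in these 5 genes. Lars2 was an exception, with 9.94 and 1.00% against 4.51 and 3.44%, on as few as 1713 T positions in its first segment. Its last segment holds the last exon, whose share was 4.52 and 3.44%. The comparison in Lars2 thus sets other exons against reads on that exon.

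**Figure D4:**
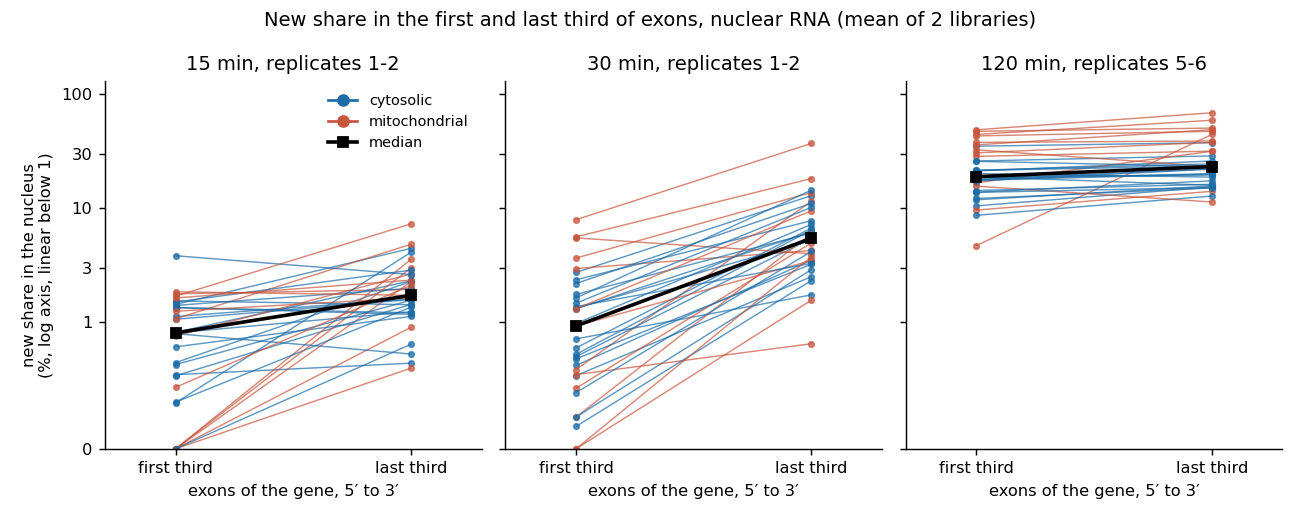
New share (%, log axis, linear below 1) in the first and last of 3 segments of the exons of each gene in the nucleus, as the mean of 2 libraries, with 1 panel per labeling time and squares for the median over 33 genes. At 30 min the medians are 0.97 and 5.43%, and at 120 min they are 18.85 and 23.1%.

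Over longer labeling the levels were compared between 120 and 20 min of replicates 3 and 4, 2 libraries against 2. By the labels these times also differ in dose (100 µM at 120 min and 500 µM at 20 min), and time and dose then cannot be told apart. Nearly none of the 36 genes was called. None was higher in any fraction, where among all genes 0.497% (cytosol), 0.0555% (membrane), 1.56% (nucleus) and 0.0712% (whole cells) were higher. The 1 lower gene was Hars2 in the nucleus, where 1.35% of all genes were lower, against 0.547% (cytosol), 0.0185% (membrane) and 0.0415% (whole cells). An unadjusted p under 0.05 in edgeR's test was reached by 2 of the 36 genes in cytosolic, 0 in membrane, 17 in nuclear and 3 in whole-cell libraries, where 13.0, 6.96, 21.7 and 9.82% of all genes reached it. DESeq2 called 2 of the 36 genes higher and 1 lower in the nucleus and none in the other fractions. With the replicate number as a block 3 were higher in the nucleus and 1 in the membrane fraction, and without replicate 3, 3 were higher in the nucleus.

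Hars2 was at 129 and 108 TPM in the nucleus at 20 min and at 81.2 and 58.2 at 120 min, without overlap. Its log2 change was −0.59 ± 0.15 (edgeR adjusted p = 0.044), and without replicate 4 it was −0.52 with an adjusted p of 0.11. Kars had the largest positive change there, from 207 and 272 to 308 and 407 TPM, or 0.76 ± 0.23 on the log2 scale (edgeR adjusted p = 0.076, not called). Gars changed by 0.46 ± 0.13 (edgeR adjusted p = 0.064, not called). On the scale of the fit, all 20 cytosolic genes had a change above 0 in the nucleus, with a median of 0.39 against 0.02 for all genes, and 14 of them had an unadjusted p under 0.05. All 20 were also above 0 in the cytosol (median 0.16) and in whole cells (median 0.23, all genes −0.01), and 17 of 20 in the membrane fraction (median 0.07). By mean TPM fewer were above their level at 20 min, namely 16 of 20 in the nucleus (not Cars, Farsa, Qars and Vars), 18 in the cytosol (not Dars and Farsb), 18 in whole cells (not Farsa and Vars) and 11 in the membrane fraction. The mitochondrial medians were 0.01 (nucleus), 0.09 (cytosol), 0.07 (membrane) and −0.05 (whole cells).

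In the other fractions the changes with the largest size were those of Vars in the cytosol, from 114 and 161 to 120 and 217 TPM (0.32 ± 0.18, edgeR adjusted p = 0.49), Rars in the membrane fraction, from 242 and 276 to 273 and 302 TPM (0.21 ± 0.14, edgeR adjusted p = 0.92), and Eprs in whole cells, from 123 and 124 to 161 and 137 TPM (0.36 ± 0.17, edgeR adjusted p = 0.50). Among the mitochondrial genes it was Lars2 in each (cytosol 0.76 ± 0.61, membrane fraction 1.24 ± 0.62, whole cells −0.44 ± 0.82), again on its last exon. In a list of 25 stress response targets, Chac1, a glutathione-degrading enzyme, was lower in the cytosol (−1.24 ± 0.28), and in the nucleus Sesn2, a leucine sensor, was higher (0.59 ± 0.14) and Stc2, a secreted stanniocalcin, lower (−0.98 ± 0.22). Of the partners, Mtfmt, which formylates the mitochondrial initiator tRNA, was lower in the nucleus (−0.74 ± 0.18).

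Levels were also compared between replicate pairs. Both replicates 1 and 2 and replicates 3 and 4 were labeled for 20 min, and their comparison was added after the values were seen. The lists of ATF4 targets, stress response targets and partners were chosen with earlier results of these data known. Counts on these lists are therefore descriptions and not independent support. The pairs cannot be told apart from anything else that differed between them, and they also differed in the membrane and secretory markers given above. In whole cells 18 of the 20 cytosolic genes were higher in replicates 3 and 4, against 10.4% of all genes, and 1 of the 16 mitochondrial ones, Rars2. None was lower, where 11.9% of all genes were. The median log2 difference was 0.76 for cytosolic, 0.10 for mitochondrial and −0.01 for all genes. Higher were all 12 synthetases that are often listed as ATF4 targets (Aars, Cars, Eprs, Gars, Iars, Lars, Mars1, Nars, Sars, Tars, Wars and Yars), with a median of 0.99, and 6 of the other 8 cytosolic genes (Dars, Farsb, Hars, Kars, Rars and Vars). Not higher were Farsa at 0.44 (edgeR adjusted p = 0.099) and Qars at −0.19 (edgeR adjusted p = 0.36).

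Aars (ENSMUSG00000031960, chr8:111033144-111057664, plus strand) was at 103 and 173 TPM in replicates 1 and 2 and at 316 and 294 in replicates 3 and 4. Its log2 difference was 1.27 ± 0.22 (edgeR adjusted p = 0.00094). Gars was at 302 and 408 against 726 and 681 TPM (1.10 ± 0.19, edgeR adjusted p = 0.00094), and Wars (tryptophan) at 61.4 and 102 against 163 and 157 (1.10 ± 0.19, edgeR adjusted p = 0.0007). The values of the pairs do not overlap for these 3 genes. Rars2 was at 57.3 and 57.1 against 89.96 and 82.9 TPM (0.68 ± 0.15, edgeR adjusted p = 0.0045). Yars2 went the other way, at 110 and 101 against 70.8 and 70.5 TPM, with a difference of −0.50 ± 0.16 (edgeR adjusted p = 0.033) that did not pass the limit of 0.5. Without replicate 3 only 1 of the 36 genes was called higher and without replicate 4 11 were. Aars was then at 1.16 (adjusted p = 0.083) without replicate 3.

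The difference was also seen over all times of the pairs. In whole cells, the 6 libraries of replicates 3 and 4 (20, 40 and 60 min) lay above all 6 of replicates 1 and 2 (15, 20 and 30 min) for 18 of the 20 cytosolic and 3 of the 16 mitochondrial genes (Fars2, Rars2 and Sars2), against 11.9% of all genes. They lay below for Qars, Hars2 and Yars2, against 20.2% of all genes. Gars ran from 302 over 363 to 430 TPM in replicates 1 and 2, from 681 over 719 to 756 in replicates 3 and 4, and from 529 over 540 to 560 in replicates 5 and 6. Aars had medians of 150, 317 and 185 TPM in the 3 pairs and Wars of 89.1, 165 and 122. In these 3 genes replicates 5 and 6 stood between the other pairs or near the lower one. Vars had 169, 268 and 114, with replicates 5 and 6 lowest. Qars had 221, 177 and 170 and Yars2 106, 68.0 and 82.0, both highest in replicates 1 and 2.

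In the cytosol, 15 cytosolic enzymes and Rars2 were higher in replicates 3 and 4 at 20 min (18.1% of all genes) and Qars, Vars2, Iars2, Aars2, Mars2 and Lars2 lower (21.3%). Farsb was at 211 and 219 against 391 and 364 TPM, with 1.18 ± 0.15 on the log2 scale (edgeR adjusted p = 2.7e-05). Qars was at 85.5 and 89.9 against 35.5 and 52.0 TPM (−0.65 ± 0.17, edgeR adjusted p = 0.0062) and Vars2 at 17.7 and 19.6 against 7.6 and 9.8 (−0.75 ± 0.19, edgeR adjusted p = 0.0052). In the membrane fraction 12 cytosolic enzymes and Rars2, Sars2 and Tars2 were higher (9.12% of all genes) and Lars2 lower (14.4%). In the nucleus Mars1 (0.62), Iars (0.60), Yars (0.56), Cars (0.52) and Vars2 (0.52) were higher (5.74% of all genes) and none lower (7.16%). With library size alone the median of all genes in the cytosol shifted by −0.26, and 11 of the 36 genes were higher and 8 lower. In the membrane fraction it shifted by 0.16, with 19 higher and 1 lower. The higher calls then made up 22.6% of all calls in the cytosol (45.9% with TMM), 59.0% in the membrane fraction (38.8%) and 58.5% in the nucleus (44.5%).

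Of the 25 stress response targets, 13 were higher and 1 lower in replicates 3 and 4 in whole cells, where 10.4 and 11.9% of all genes were. Chac1 had the largest difference (2.13 ± 0.37, edgeR adjusted p = 0.00091), followed by Pycr1, a proline-making enzyme (1.66 ± 0.19, edgeR adjusted p = 4.2e-05), and Atf5, a transcription factor (1.23 ± 0.21, edgeR adjusted p = 0.00088). The lower gene was Slc7a5, a leucine transporter (−0.56 ± 0.16, edgeR adjusted p = 0.019). In the nucleus 8 were higher and none lower (5.74 and 7.16% of all genes), again with Pycr1 (1.63), Chac1 (1.49) and Atf5 (1.14) at the top. Atf4 itself was at 0.38 in whole cells (adjusted p = 0.092). Of the 11 partners, 9 were higher in cytosolic and 2 in membrane libraries, and 1, Gatc (0.87 ± 0.17), in whole cells.

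**Figure D5:**
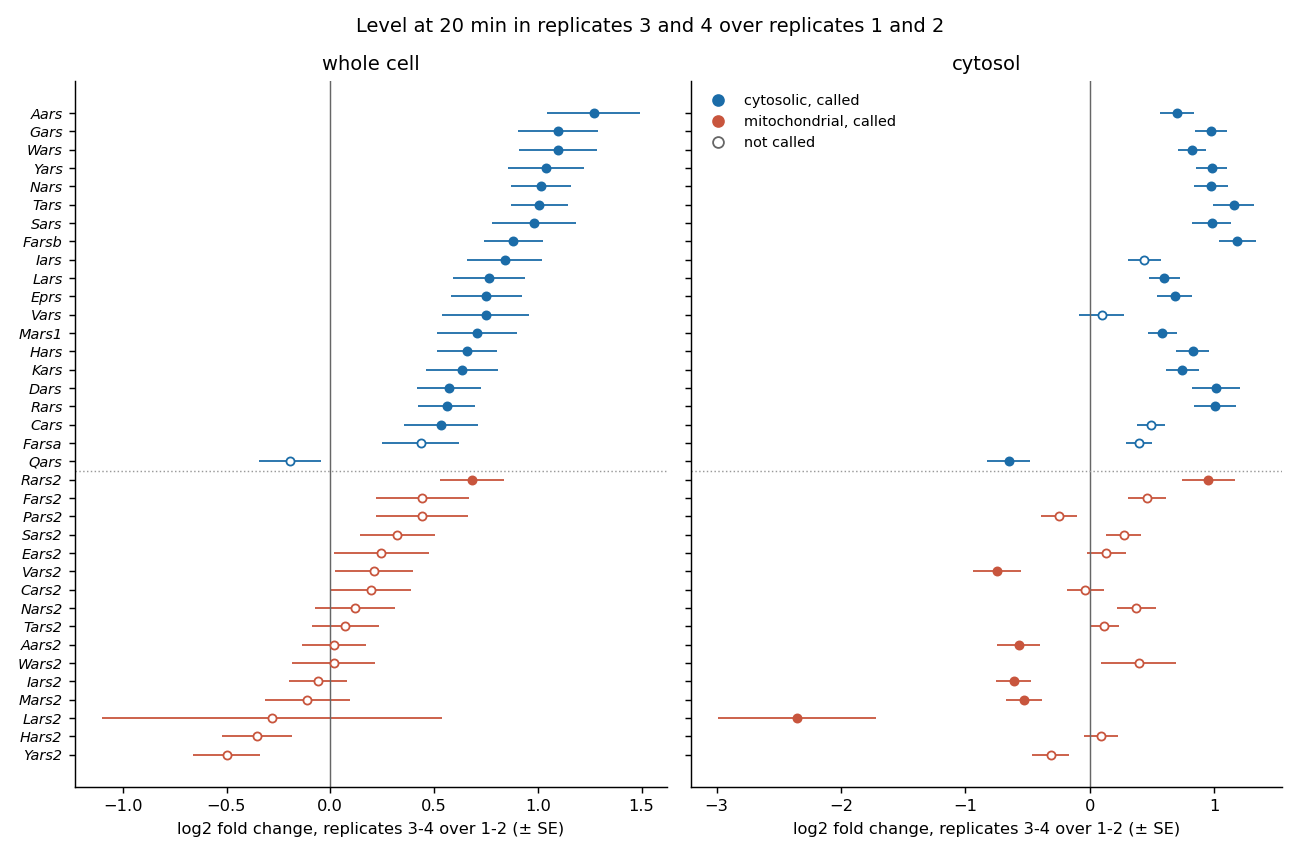
Log2 fold change of each gene at 20 min between replicates 3 and 4 and replicates 1 and 2 in whole cells and in the cytosol (points, ± SE), with called genes filled and colored by set. In whole cells 18 of 20 cytosolic genes and Rars2 are called higher, and in the cytosol Qars and 5 mitochondrial genes are called lower.

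Upstream sequences of 4 genes that were higher in replicates 3 and 4 are shown with the letters of 2 motifs. The first is TGATGNAA (TTNCATCA on the other strand), the composite site that ATF4 is known to bind with a C/EBP partner. Windows from 250 bases before to 50 bases after the start of each gene were taken from RefSeq (GRCm38.p6) for 13 cytosolic and 14 mitochondrial genes, without Cars, Hars, Lars, Nars, Rars, Vars and Wars. The letters were found, on either strand, in 5 of 13 cytosolic promoters (38.5%: Aars, Gars, Iars, Tars and Yars), in 0 of 15 mitochondrial promoters and in 3.97% of 32851 promoters of all genes. The E-box CACGTG, which reads the same on both strands, was found in 4 of 13 cytosolic promoters (Aars, Farsb, Iars and Tars), in 1 of 15 mitochondrial ones (Ears2) and in 7.15% of all. A match is a description of letters and not of binding, and any part of ATF4 in the difference between the pairs was not tested. The upstream 250 bases of Gars (chr6:55037751-55038000, plus strand), Aars (chr8:111033592-111033841, plus strand), Tars (chr15:11399659-11399908, minus strand) and Farsb (chr1:78488898-78489147, minus strand) are given 5′ to 3′ in the direction of the gene. Capitals mark TTNCATCA in the first 3, which begins 30, 112 and 15 bases before the start, and the E-box in Farsb, 39 bases before it. Starts are those of RefSeq and can lie inside the gene ranges given here. The Aars window lies wholly within its range (chr8:111033144-111057664).
Gars: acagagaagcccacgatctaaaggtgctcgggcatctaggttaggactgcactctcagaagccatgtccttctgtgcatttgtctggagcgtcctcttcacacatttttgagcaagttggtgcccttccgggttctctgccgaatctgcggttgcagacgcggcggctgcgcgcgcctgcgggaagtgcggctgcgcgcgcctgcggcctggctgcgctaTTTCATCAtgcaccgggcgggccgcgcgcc
Aars: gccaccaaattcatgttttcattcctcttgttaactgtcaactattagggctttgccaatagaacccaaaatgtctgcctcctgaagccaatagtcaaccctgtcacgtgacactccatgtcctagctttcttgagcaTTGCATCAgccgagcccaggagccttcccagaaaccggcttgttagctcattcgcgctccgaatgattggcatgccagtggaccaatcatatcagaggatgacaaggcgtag
Tars: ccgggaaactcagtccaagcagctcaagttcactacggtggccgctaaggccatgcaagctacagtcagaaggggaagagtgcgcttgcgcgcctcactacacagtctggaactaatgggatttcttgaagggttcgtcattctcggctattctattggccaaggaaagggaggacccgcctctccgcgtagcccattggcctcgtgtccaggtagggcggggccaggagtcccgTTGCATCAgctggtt
Farsb: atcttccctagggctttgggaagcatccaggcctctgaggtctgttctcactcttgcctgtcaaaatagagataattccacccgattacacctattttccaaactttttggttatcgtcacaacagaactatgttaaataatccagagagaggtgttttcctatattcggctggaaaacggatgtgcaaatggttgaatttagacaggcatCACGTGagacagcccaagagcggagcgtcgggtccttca

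Aars, Gars and Tars, whose windows hold the composite site, were at 1.27, 1.10 and 1.01 on the log2 scale in whole cells between the pairs at 20 min, and Iars and Yars at 0.84 and 1.04. Farsb, with an E-box and no composite site, was at 0.88. The 7 genes whose windows hold neither were Sars (0.98), Eprs (0.75), Mars1 (0.71), Kars (0.64), Dars (0.57), Farsa (0.44) and Qars (−0.19), and 5 of them were called higher. The 7 cytosolic genes without a window were all called higher, from 0.53 for Cars to 1.10 for Wars.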

How the data were processed

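The authors sequenced poly(A)-selected RNA with a stranded kit, aligned it to GRCm38 (mm10) with STAR 2.7.6 and deposited unscaled gene-level read counts (HTSeq 0.11.1), counts of T positions and T2C changes per exon, gene and intron, leaving out variants seen without label, and the conversion rate of each library as a fraction from a binomial mixture. A deposited ratio of T2C to T, divided by that rate by the authors, was recomputed from the counts. The submitters' notes also name RSEM 1.3.3. Reads on no gene (30.4–48.8% per library) were left out. Members were taken by symbol and not by their values, but members and gene lists were chosen with earlier results of these data known.

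Counts were tested in R 4.3.3 with edgeR 4.0.16 (TMM, filterByExpr, quasi-likelihood, Benjamini-Hochberg over all genes), with 1 group per fraction, time and replicate pair. Fraction contrasts were averaged over 8 conditions. New shares were tested as T2C counts with the offset log(T × conversion rate) in genes with at least 400 T positions in every library used. Replicates are separate passages by the labels, the 4 fractions of a culture come from the same cells, and the fits had no block for the culture. Deviations of the same culture from their group means had correlations from −0.06 to 0.46 over 18 pairs of fractions.

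TPM used the annotated exon length and protein-coding genes of nuclear chromosomes as the denominator. Values are named for up to 3 called genes with the largest change in each direction and set, for the gene with the largest change where none was called, and for Gars and Kars. Tables were made with Python 3.11.15, pandas 2.3.3, numpy 2.4.6 and matplotlib 3.10.9. Tested on simulated counts with known changes, the fit recovered 190 of 199 genes at a log2 change of 1 for membrane over cytosol (0 false calls, 3967 genes), 165 of 200 for shares (9 false calls, 4000 genes) and 167 of 197 at a log2 change of 2 for 120 over 20 min (8 false calls, 16338 genes). Alternatives were DESeq2 1.42.0, other scalings, no filter, limma 3.58.1 for shares, subsets of times and leaving out each replicate.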

Additional observations from a re-analysis of the deposited data

Results flagged for a closer look

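Vars2, the mitochondrial valine enzyme, changed in opposite directions in 2 fractions of the same cultures at 20 min. In the nucleus it was at 40.7 and 47.5 TPM in replicates 1 and 2 and at 74.1 and 70.3 in replicates 3 and 4, and in the cytosol at 17.7 and 19.6 and at 7.55 and 9.79. In replicates 3 and 4 against 1 and 2 its log2 difference was 0.52 ± 0.13 in the nucleus (edgeR adjusted p = 0.015) and −0.75 ± 0.19 in the cytosol (edgeR adjusted p = 0.0052). Both libraries of a pair lay on the same side of both libraries of the other pair in each fraction. Without replicate 1 the nuclear difference was 0.46 (edgeR adjusted p = 0.14) and without replicate 2 the cytosolic one −0.70 (edgeR adjusted p = 0.082), so that neither call held in every fit. The difference between the fractions was not tested.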

How the results depend on the processing

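Called differences of the 36 genes kept their direction in the alternative fits, with these exceptions. Outside the fits, Iars and Nars, called lower in the nucleus than in the cytosol, had median TPM ratios above 1. The nuclear over cytosolic share turned below 0 for Cars2 with 20 min alone (−0.42) and within replicates 1 and 2 (−0.27), for Rars2 within replicates 1 and 2 (−0.12), and for Aars (−0.001031), Iars2 (−0.45) and Yars2 (−0.17) within replicates 5 and 6, which are the libraries of 60 and 120 min at 100 µM. Those libraries called 8 of the 36 genes higher and 1373 genes in all for nuclear over cytosolic shares, and 3 of the 36 lower and 974 genes in all for membrane over cytosol shares. Shares with 20 min alone called 1071 genes between membrane and cytosol and limma with a pseudocount of 0.05 called 952, with 18 of the 36 genes higher in the nucleus. Within replicates 3 and 4, 3 of the 36 genes had a higher and 2 a lower share in the membrane fraction. The cause was not tested.

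For membrane over cytosol levels, library size alone gave 3 higher and 20 lower of the 36 genes and 11742 genes in all, with 33.1% of all calls higher in place of 66.9%, and the median of all genes shifted by −0.31. No filter gave 8 lower, and replicates 1 and 2, 3 and 4, and 5 and 6 alone gave 2, 9 and 8 lower. For nucleus over cytosol, library size alone gave 9 and replicates 5 and 6 alone 8 lower. At 20 min between pairs, library size alone gave 8 higher in the nucleus, no filter 1 lower there, and DESeq2 and RLE factors 1 lower in whole cells.

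For 120 over 20 min, DESeq2 called 258 genes in the cytosol, 34 in the membrane fraction, 942 in the nucleus (2 of the 36 higher) and 111 in whole cells, where edgeR called 170, 12, 518 and 19. No filter on low counts called 436, 116, 1242 and 227, with 1 of the 36 higher in each of cytosol, membrane fraction and nucleus. A replicate block called 1044, 46, 1803 and 31, with 1 of the 36 higher in the membrane fraction and 3 in the nucleus. Same-numbered libraries of 20 and 120 min deviated together with correlations of 0.28 (nucleus), 0.38 (cytosol), 0.44 (membrane fraction) and 0.02 (whole cells). Their median was 0.33, against 0.25 for fractions of the same culture. The main fit did not use the number as a pairing, and whether it pairs the cultures was not tested. With the replicate block (culture), membrane over cytosol gave 5 higher and 5 lower, nucleus over cytosol 7 and 14, and shares 31 higher and 1 lower.

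Leaving out 1 replicate gave these ranges of the 36 genes. Membrane over cytosol had 3 to 5 higher and 4 to 13 lower (13 without replicate 4, 9 without replicate 5), nucleus over cytosol 6 to 9 higher and 8 to 15 lower, membrane shares 1 to 2 lower and nuclear shares 28 to 34 higher. Between pairs at 20 min, 3 to 6 were lower in the cytosol, 0 to 1 in the membrane fraction and in the nucleus and 0 to 2 in whole cells, and 2 to 8 were higher in the nucleus and 1 to 20 in whole cells. All genes called between pairs numbered 3789 to 7913 in the cytosol, 1699 to 5294 in the membrane fraction, 896 to 3407 in the nucleus and 344 to 4143 in whole cells. For 120 over 20 min they numbered 27 to 862, 2 to 7, 290 to 565 and 0 to 0, with 1 to 3 higher and 0 to 1 lower of the 36 in the nucleus.

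Depth limits the rare mitochondrial mRNAs most, since the poorest library of Wars2 holds 2789 T positions. Intervals for counting error were not used.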
